A study of Mus musculus with 6 samples.

Results

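Core promoter regions were the regions whose annotation in the deposited tables is promoter within 1 kb of a transcription start site (TSS), and they were taken by that annotation alone, without regard to signal. The libraries form a T and an S set, named after a letter in their titles. For TGF-b against NC core promoters numbered 10109 of 170890 regions (T set) and 3066 of 52723 (S set). For siRNA with TGF-b against TGF-b, which is called siRNA over TGF-b below, they numbered 9758 of 180118 and 4393 of 52579. Cardiac fibroblasts in primary culture from mouse heart had been profiled in 6 libraries by CUT&Tag, in which an antibody guides a transposase to chromatin. By the labels, NC, TGF-b and TGF-b+SiTAZ made up the T set, and NC, TGF-b and TGF-b+SiSRF the S set. The antibodies, presumably to TAZ for T and to SRF for S, are not in the labels, and the study's figure legend describes siRNA to another gene, Piezo2. The series' design text speaks of Tet3 deletion by a Cre virus, which no label of these libraries mentions, and neither the age nor the number of the mice is given in the sources used here.

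With 1 library per treatment in a set, treatments could not be tested. The values below describe these libraries, and their intervals cover counting error only. The 2 comparisons of a set share the TGF-b library, so that a high value in it raises the first ratio and lowers the second.

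The core promoter is the DNA next to the TSS on which RNA polymerase II and the general transcription factors assemble. Promoters of widely used genes in the mouse are mostly rich in CpG dinucleotides and in GC boxes bound by SP and KLF factors, whereas promoters of many tissue-restricted genes, such as those of odorant receptors, are CpG-poor. TAZ, the product of Wwtr1, does not bind DNA by itself and reaches it mainly through TEAD factors, often at enhancers. SRF binds the CArG box of actin-cytoskeleton and immediate early genes together with MRTF or TCF cofactors.

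Promoter windows of 8 genes named below are shown to let the letters searched and the range of CpG content be seen: the densely covered Wipi1 and Hdgfl2, Klf3 as a region higher under TGF-b in both sets, Naa15 and Rragc as the extremes of the T set, and Vcl, Fosl2 and Ankrd1 as genes of the SRF, AP-1 and YAP/TAZ lists. Each runs 5′ to 3′ on the gene's strand from 250 bases before to 50 bases after the start, from RefSeq on GRCm38.p6, which is not the build of the region coordinates given below. Capitals mark, on either strand, TATAAA (the TATA box), CCAAT (bound by NF-Y), GGGCGG (the GC box), CCGGAA (ETS factors), TGACGTCA (CREB), TGANTCA (AP-1), GGAATG (TEAD), CGCATGCG (NRF1) and the CArG box (SRF). Adjoining or overlapping matches run together.
Wipi1: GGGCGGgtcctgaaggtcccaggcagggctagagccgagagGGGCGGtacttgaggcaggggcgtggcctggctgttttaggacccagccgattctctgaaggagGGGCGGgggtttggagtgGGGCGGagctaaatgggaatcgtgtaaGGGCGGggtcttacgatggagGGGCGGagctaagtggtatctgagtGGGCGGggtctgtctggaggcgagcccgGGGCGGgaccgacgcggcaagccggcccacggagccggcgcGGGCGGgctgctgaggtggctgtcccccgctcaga
Hdgfl2: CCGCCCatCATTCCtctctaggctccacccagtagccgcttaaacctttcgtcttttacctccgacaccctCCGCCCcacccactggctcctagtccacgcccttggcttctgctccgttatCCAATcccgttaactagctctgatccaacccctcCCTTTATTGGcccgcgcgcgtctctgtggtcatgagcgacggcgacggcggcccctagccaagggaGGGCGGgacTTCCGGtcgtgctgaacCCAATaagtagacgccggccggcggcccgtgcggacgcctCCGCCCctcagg
Klf3: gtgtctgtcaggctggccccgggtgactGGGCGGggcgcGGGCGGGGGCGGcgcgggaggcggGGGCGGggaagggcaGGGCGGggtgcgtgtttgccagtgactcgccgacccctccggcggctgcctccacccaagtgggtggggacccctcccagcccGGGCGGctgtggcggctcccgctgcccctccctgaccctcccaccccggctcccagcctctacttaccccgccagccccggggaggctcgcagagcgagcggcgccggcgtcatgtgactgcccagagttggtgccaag
Naa15: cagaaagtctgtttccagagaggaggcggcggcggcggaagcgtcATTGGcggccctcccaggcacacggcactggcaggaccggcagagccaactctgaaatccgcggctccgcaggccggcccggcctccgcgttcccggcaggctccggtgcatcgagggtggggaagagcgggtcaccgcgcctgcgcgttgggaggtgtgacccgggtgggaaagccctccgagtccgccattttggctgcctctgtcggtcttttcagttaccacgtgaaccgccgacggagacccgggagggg
Rragc: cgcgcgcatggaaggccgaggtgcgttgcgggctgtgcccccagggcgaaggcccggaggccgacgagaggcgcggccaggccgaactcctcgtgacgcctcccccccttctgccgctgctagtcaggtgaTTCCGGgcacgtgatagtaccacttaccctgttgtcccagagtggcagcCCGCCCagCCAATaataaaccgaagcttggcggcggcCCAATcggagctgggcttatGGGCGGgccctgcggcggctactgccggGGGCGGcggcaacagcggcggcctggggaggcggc
Vcl: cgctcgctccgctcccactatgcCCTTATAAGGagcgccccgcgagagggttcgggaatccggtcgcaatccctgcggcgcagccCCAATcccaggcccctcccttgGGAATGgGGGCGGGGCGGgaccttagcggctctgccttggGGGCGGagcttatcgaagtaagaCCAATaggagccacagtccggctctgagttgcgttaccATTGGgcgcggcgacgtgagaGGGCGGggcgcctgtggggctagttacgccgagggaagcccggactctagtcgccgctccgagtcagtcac
Fosl2: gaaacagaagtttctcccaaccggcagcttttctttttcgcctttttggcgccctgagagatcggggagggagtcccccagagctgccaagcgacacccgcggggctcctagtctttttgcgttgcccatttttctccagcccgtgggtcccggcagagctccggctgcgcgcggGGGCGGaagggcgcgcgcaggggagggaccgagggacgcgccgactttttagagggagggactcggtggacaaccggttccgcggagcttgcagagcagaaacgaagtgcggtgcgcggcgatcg
Ankrd1: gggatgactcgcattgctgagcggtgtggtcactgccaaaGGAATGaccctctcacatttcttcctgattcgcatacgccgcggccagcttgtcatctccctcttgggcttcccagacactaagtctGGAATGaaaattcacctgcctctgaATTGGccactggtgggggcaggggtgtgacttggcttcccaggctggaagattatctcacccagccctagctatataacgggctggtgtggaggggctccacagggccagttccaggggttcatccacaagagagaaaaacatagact

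The windows lie at chr11:109611340-109611639 (minus strand), chr17:56079381-56079680 (plus strand), chr5:64803271-64803570 (plus strand), chr3:51415766-51416065 (plus strand), chr4:123917183-123917482 (plus strand), chr14:20929148-20929447 (plus strand), chr5:32136222-32136521 (plus strand) and chr19:36119795-36120094 (minus strand), in the order shown. The Wipi1 window held 9 GGGCGG matches, the Klf3 window 6 and the Vcl window 4. A CArG box was found in the windows of Hdgfl2 and Vcl, and the TEAD letters GGAATG in those of Hdgfl2, Vcl and, in 2 places, Ankrd1. The Ankrd1 window held 7 CpGs, and the other windows shown held 25 to 32.

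Most core promoter regions were short and close to the start. By the authors' annotation the centre of every such region lay upstream, between 1000 and 0 bp from the TSS, with a median of 135 bp in both T set tables, 119 bp in the S set for TGF-b against NC and 100 bp there for siRNA against TGF-b. Median widths were 136 to 187 bp. The regions belonged to 8421, 2948, 8213 and 4167 genes in the order of the 4 comparisons above, and 12056 genes had one in any table. Of the 10562 genes with a core promoter region in a T set table and the 4770 in an S set table, 3276 were shared, which is 31.0% of the T set genes and 68.7% of the S set genes. In all, 1479 genes had such a region in each of the 4 tables.

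Core promoter regions made up different shares of what was called in each library. They were 7088 regions or 5.58% of those called in the T set NC library, 5669 or 10.7% in its TGF-b library and 6414 or 4.77% in its siRNA library. In the S set they were 1386 or 4.95% in NC, 2085 or 8.05% in TGF-b and 3351 or 11.7% in the siRNA library. Among regions called in both libraries of a table the share was higher: 28.6% (T) and 35.1% (S) for TGF-b against NC, and 30.6% and 50.9% for siRNA against TGF-b. Read depth, recovered from the densities, was also higher than over the table, with medians of 16 reads in NC and 18 in TGF-b for the T set core regions against 9 and 5 over all regions. In the S set these medians were 10 and 19 reads, against 8 and 10.

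By the median, core promoters held more signal in the TGF-b library than in NC in both sets, whereas the medians over all regions of the tables lay below 0. The median log2 ratio of normalised read density in the T set was 0.16 (95% rank interval 0.14 to 0.18) over core promoter regions and -0.65 over all regions. In the S set it was 0.36 (0.32 to 0.40) and -0.20. Much of this contrast went with which library a region was called in. Over all regions the T set median was -1.27 in the 117769 called in NC alone, 1.41 in the 43854 called in TGF-b alone and -0.001 in the 9267 called in both. A region called in 1 library alone was chosen through its signal there, so the signs of the first 2 medians follow from the calling. T set core regions split likewise, with medians of -0.63 when called in NC alone and 1.02 when called in TGF-b alone. Core promoter regions called in both libraries had medians of 0.34 (T) and 0.26 (S), beside -0.001 and 0.01 over all regions called in both. Whether the authors' rescaling was set on regions called in both was not tested, so their medians near 0 are not an independent reference. The sign of the S set median over all regions depended on the authors' rescaling: without it all regions had a median of 0.36 and core promoter regions one of 0.92, as far apart as with it. Of the T set core regions, 2242 or 22.2% were at least 2-fold higher under TGF-b and 1845 or 18.3% at least 2-fold lower, beside 17.3% and 42.1% of all regions. At 4-fold the T set counts were in the other order, with 735 higher and 791 lower. The share of all regions past 4-fold was not computed, so these counts cannot be set against the table as those at 2-fold are. Of those in the S set, 701 or 22.9% were at least 2-fold higher and 284 or 9.26% lower, beside 17.4% and 26.7%. By the counting interval of the region's own reads, 2722 T set core regions lay above 0 and 1659 below, beside 14.8% above and 31.1% below among all regions. In the S set 680 lay above and 227 below, beside 11.5% and 19.2%.

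In the comparison of siRNA with TGF-b the medians of the sets had different signs, which did not hold under every choice of regions. The T set median was -0.078 (-0.12 to -0.04) over core promoter regions and 0.97 over all regions. Of all regions 126997 were called in the siRNA library alone, and the sign of their median of 1.62 likewise follows from the calling. Among regions called in both libraries the difference was smaller, with medians of -0.20 at core promoters and -0.004 over all regions in the T set, and of 0.087 and -0.01 in the S set. The limit given above for such regions applies here too. Of all T set core regions, 2171 or 22.2% were at least 2-fold higher in the siRNA library and 2223 or 22.8% at least 2-fold lower. Over all regions of the table these shares were 49.7% and 16.2%. The S set median was 0.13 (0.11 to 0.16) against -0.21 over all regions, with 591 or 13.5% of core regions higher and 419 or 9.54% lower, beside 15.1% and 27.8%. Counting intervals lay above 0 for 1983 and below 0 for 2366 T set core regions, beside 38.9% and 11.4% of all regions. In the S set they lay above 0 for 616 and below 0 for 434, beside 10.2% and 21.8%. With every region within 1 kb of a TSS taken whatever its annotation, the T set median turned to 0.025. At 4-fold the order of the counts turned in both sets, to 973 higher and 870 lower (T) and 83 and 93 (S), again without a share over all regions beside them.

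**Figure D1:**
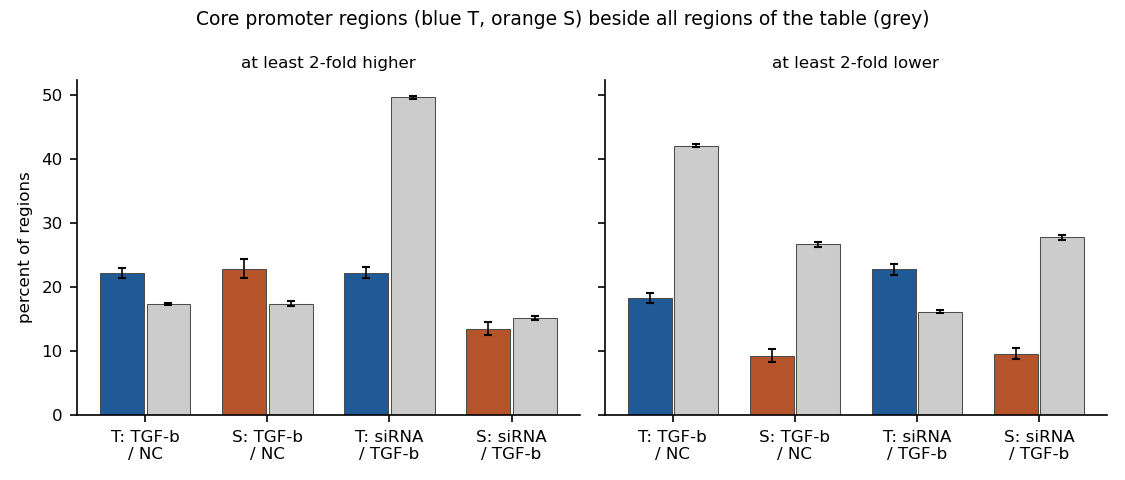
Percent of regions at least 2-fold higher (left) or lower (right) in each of the 4 comparisons, for core promoter regions (blue, T set; orange, S set) and for all regions of the same table (grey); bars are Wilson 95% intervals. Lower regions made up 18.3% of T set core regions under TGF-b against 42.1% of all regions, and higher regions 22.2% against 49.7% in the siRNA comparison.

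These levels depended on the zero of the ratio. Centred on the median of all regions, higher regions made up 81.2% of the T set core regions past 2-fold under TGF-b, in place of 54.9%, and 81.2% in place of 71.2% in the S set. In the siRNA comparison they made up 16.4% in place of 49.4% (T) and 73.0% in place of 58.5% (S). Without the authors' line the share of higher regions was 91.3% in the S set under TGF-b and 30.7% in the T set under siRNA. The sign of the core promoter median held under both scalings in all 4 comparisons.

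Core promoter regions held more reads than others, so regions were also split by their reads in the 2 libraries together. Among T set regions of 21 to 40 reads, the median log2 ratio of TGF-b over NC was 0.13 at the 3019 core promoter regions and -0.82 at the 32677 others. At 41 to 80 reads it was 0.30 and -0.57. For the S set the medians at 21 to 40 reads were 0.36 and -0.15. For siRNA over TGF-b at 21 to 40 reads they were -0.18 and 0.95 (T), and 0.13 and -0.29 (S). At 10 reads or fewer, T set core regions had a median of -0.63 under TGF-b, close to the -0.80 of the others, and at 11 to 20 reads the 1867 core regions had one of -0.19 (-0.26 to -0.07). Under siRNA the T set core regions were above 0 at low reads, with medians of 1.03 at the 1372 regions of 10 reads or fewer and 0.17 at the 1997 of 11 to 20, beside 1.26 and 0.97 at the others. The sign of the T set median therefore differed between regions of few and of many reads in both comparisons. S set core regions of 10 reads or fewer had medians of -1.08 under TGF-b over 122 regions and 0.73 under siRNA over 121.

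The ratio changed with distance to the TSS. In the T set, the median log2 ratio of TGF-b over NC was -0.33 at 1000 to 500 bp upstream, -0.10 at 500 to 250 bp, 0.28 at 250 to 100 bp, 0.32 at 100 to 50 bp and 0.36 at 50 to 0 bp. It was -0.74 in the 2989 promoter regions 1 to 2 kb upstream. The S set medians ran from -0.03 at 1000 to 500 bp to 0.44 at 50 to 0 bp. For siRNA over TGF-b the T set order was opposite, from 0.55 at 1000 to 500 bp to -0.29 at 50 to 0 bp, with 0.92 beyond 1 kb. The S set medians of that comparison lay between -0.078 at 500 to 250 bp and 0.21 at 50 to 0 bp. Centring turned the value at 1000 to 500 bp to 0.32 under TGF-b and to -0.42 under siRNA in the T set, and did not affect the order of the bins. The S set values at 1000 to 500 bp also turned, to 0.17 and 0.19. Regions on the other side of the start, annotated as 5′ UTR, had medians of 0.30 (T) and 0.45 (S) under TGF-b, and of -0.30 and -0.01 under siRNA. Median reads also differed along this axis, from 12 and 8 in the T set NC and TGF-b libraries at 1000 to 500 bp to 18 and 22 at 50 to 0 bp, and their part in the trend was not tested.

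**Figure D2:**
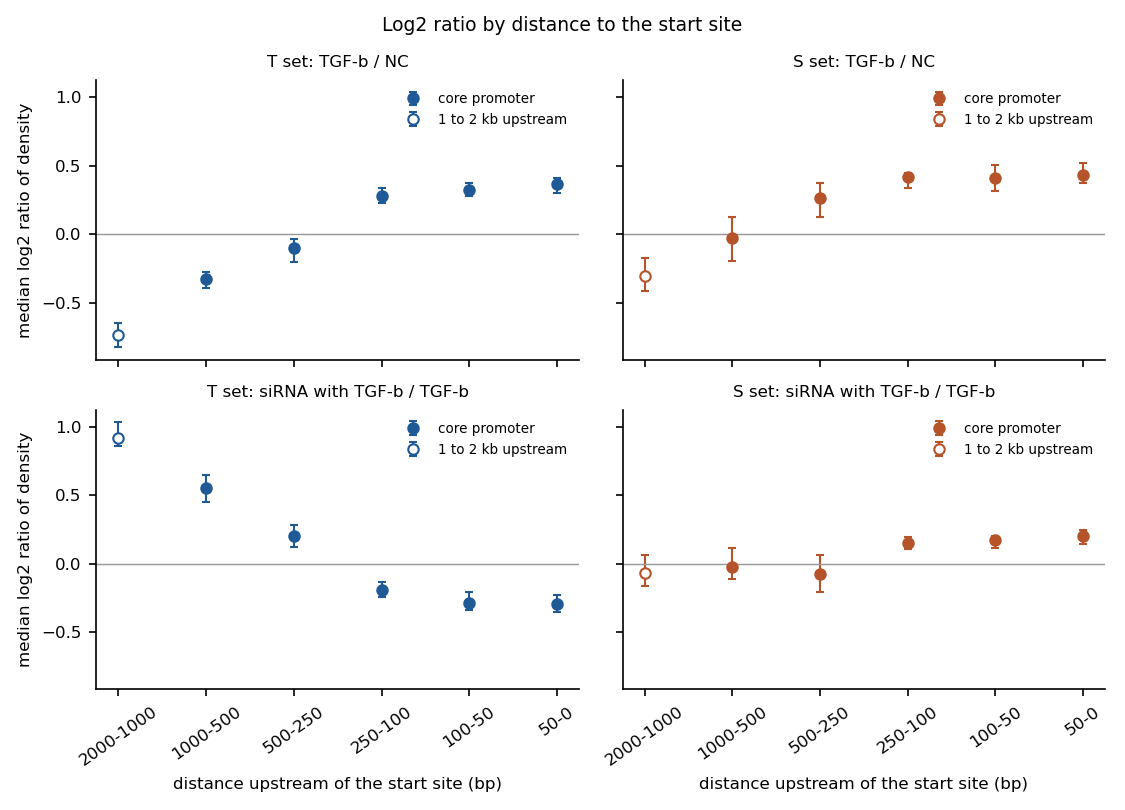
Median log2 ratio of normalised read density (y) by distance upstream of the start site in bp (x), for core promoter regions (filled) and regions 1 to 2 kb upstream (open), in the 4 comparisons; bars are 95% rank intervals. The T set medians ran from -0.74 to 0.36 towards the start for TGF-b over NC and from 0.92 to -0.29 for siRNA over TGF-b.

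Read numbers of single regions are given as recovered, without scaling between libraries, so that only the log2 ratios compare them. Among the densest core promoter regions outside the mitochondrial genome and unplaced contigs was that of Wipi1, which takes part in autophagosome formation. Its T set region, chr11:109502205-109502803 in the tables' coordinates with contig names of GRCm39, held 146 NC, 253 TGF-b and 205 siRNA reads, and its S set region 49, 88 and 103. Garnl3 held 155, 267 and 157 reads in the T set and 50, 82 and 100 in the S set. Hdgfl2 held 159, 261 and 155 reads in the T set. These regions had log2 ratios of TGF-b over NC between 0.55 and 0.64 in the T set, with intervals above 0, and of 0.33 (-0.16 to 0.84) for Wipi1 and 0.20 (-0.30 to 0.71) for Garnl3 in the S set. Under siRNA the T set log2 ratio of Wipi1 was 0.20 (-0.06 to 0.47), that of Garnl3 -0.26 (-0.55 to 0.02) and that of Hdgfl2 -0.24 (-0.53 to 0.04), all with intervals that included 0. Dnpep, an aspartyl aminopeptidase gene, held 119, 203 and 270 reads in the T set, with log2 ratios of 0.63 (0.31 to 0.96) for TGF-b and 0.92 (0.66 to 1.18) for siRNA. Rab40c held 224, 199 and 148, with log2 ratios of -0.33 (-0.61 to -0.06) and 0.08 (-0.23 to 0.38). The 2 mitochondrial regions counted as core promoters, at mt-Nd1 and mt-Nd5, held 239258 to 520037 reads for T and 139203 to 181824 for S.

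Many of the largest log2 ratios came from regions with 0 reads in one library. In the T set, Naa15, a subunit of the N-terminal acetyltransferase NatA, had 0 NC, 38 TGF-b and 18 siRNA reads at chr3:51323297-51323463, 57 bp upstream of its start. With reads of 3 or fewer set to 3, its density was at least 14.2-fold higher under TGF-b. That bound covers the 0 and not the counting error of the 38 reads, with which the lower limit of its log2 ratio was 3.47. Cct2, a subunit of the chaperonin TRiC, had 0, 35 and 20 reads and was at least 13.1-fold higher by the same floor, with a lower limit of 3.35. Rragc, a Rag GTPase of the mTORC1 pathway, had 0, 31 and 22 reads and was at least 11.6-fold higher, with a lower limit of 3.18. At the other end, Plekha8 and the predicted genes Gm45515 and Gm42836 had 40, 40 and 37 reads in NC and 0 in TGF-b, and the first 2 were at least 11.9-fold lower, with log2 ratios of at most -3.22 by the counting interval. All 3 higher regions were called in the TGF-b library alone, and all 3 lower ones in NC alone.

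In the S set the largest values under TGF-b were at Gm2061, with 0 NC, 28 TGF-b and 15 siRNA reads, at Unk, with 0, 27 and 18, and at Ctdsp1, a phosphatase gene, with 0, 23 and 13. By the floor of 3 reads the densities were at least 6.15-, 5.93- and 5.04-fold higher, and the lower limits of the log2 ratios were 2.26, 2.21 and 1.98. Lowest were 2310075C17Rik at 19 and 2 reads, Chn1 at 18 and 2 and Styx at 17 and 3. Under siRNA the T set extremes were Gm30455, 4930548J01Rik and 4930432J09Rik, with 0 reads in TGF-b and 33, 29 and 28 in the siRNA library. On the lower side were Ctif, with 59 reads in TGF-b and 0 in the siRNA library, and Casp8ap2 and Dis3l, with 42 and 0 each. Ctif, Casp8ap2 and Dis3l held 19, 24 and 32 reads in NC. The S set extremes under siRNA were Gm56529 and Apbb3 at 2 and 21 reads and Ddx47, an RNA helicase gene, at 3 and 25, and on the lower side Macf1 at 20 and 0, Dao at 28 and 1 and Hpd at 27 and 2. At NC, Macf1 held 1 read, Dao 3 and Hpd 10.

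Counts of listed genes are to be read against all genes with a core promoter region, each by its densest region. In the T set 23.0% of these were at least 2-fold higher and 16.9% lower under TGF-b, and 20.9% and 23.9% under siRNA. Counting intervals lay above 0 for 28.1% and below 0 for 15.5% under TGF-b, and for 19.3% and 25.6% under siRNA. The S set shares of genes past 2-fold were 23.2% and 9.06% under TGF-b, and 13.3% and 9.41% under siRNA.

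Among AP-1 genes, which encode the dimeric factors downstream of growth and stress signals, 4 of the 5 with a core region in the T set had a counting interval above 0 under TGF-b, beside 28.1% of all genes. Of 9 listed genes these 5 had a core region, 3 were at least 2-fold higher and none lower, with a median log2 ratio of 1.13 beside 0.20 over the 8419 genes with such a region. Fosl2, at chr5:32292738-32292981, held 35 NC, 80 TGF-b and 20 siRNA reads, so that its log2 ratio was 1.13 (0.59 to 1.73) for TGF-b and -1.47 (-2.22 to -0.82) for siRNA. Jun, at chr4:94940407-94940633, held 29, 69 and 27 reads, and Junb 39, 74 and 23. In these genes the TGF-b library stood above both other libraries. Jund was at 13 and 30 reads in NC and TGF-b, with a log2 ratio of 1.20 (0.33 to 2.18). Atf3 differed by less than counting error, with log2 ratios of 0.35 (-0.13 to 0.85) and -0.20 (-0.73 to 0.31). Of the S set, only Fosl2 had a core region in both tables, with 6, 22 and 12 reads.

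Genes of TGF-b signalling were mixed. Of 19 listed, 11 had a core region in the T set against NC, with 4 at least 2-fold higher (36.4%, beside 23.0% over all such genes), 2 lower (18.2%, near the 16.9% over all) and a median of 0.46. Under siRNA 1 of 13 was higher and 2 lower in the T set, with a median of 0.06 that centring turned to -0.91. Ski, a repressor of SMAD signalling, held 29 NC, 158 TGF-b and 41 siRNA reads at chr4:155307526-155307989, and its log2 ratios were 2.35 (1.82 to 2.96) and -1.43 (-1.95 to -0.96). Tgfbr1, which encodes the type I receptor, held 24, 50 and 33 reads. Smurf1, a ubiquitin ligase for SMADs, was lower under TGF-b, with 83 and 36 reads and a log2 ratio of -1.22 (-1.80 to -0.68). Smad3 held 37, 52 and 20 reads in the T set and 3, 24 and 8 in the S set, where its log2 ratios were 2.07 (0.78 to 4.06) and -1.40 (-2.63 to -0.38). Within the S set 6 listed genes had a core region under TGF-b, 3 of them at least 2-fold higher and none lower, and 3 of 7 were at least 2-fold lower under siRNA. Ltbp2 and Ltbp3, which bind latent TGF-b, were among both, with 3, 19 and 7 reads and 3, 21 and 8 reads.

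SRF-MRTF targets, mostly genes of actin filaments and adhesions, had a median of 0.78 under TGF-b in the T set. Of 18 listed genes 11 had a core region, and 5 were at least 2-fold higher and 1 lower, which is 45.5% and 9.09% beside 23.0% and 16.9% over all genes. Zyx, which encodes the adhesion protein zyxin, was the densest, with 107, 182 and 120 reads and log2 ratios of 0.64 (0.30 to 0.99) and -0.10 (-0.43 to 0.23). Vcl, which encodes vinculin, held 31 NC, 76 TGF-b and 36 siRNA reads at chr14:20979024-20979503, with log2 ratios of 1.24 (0.67 to 1.86) and -0.57 (-1.16 to -0.03). Its S set region held 13, 29 and 20 reads, with intervals that included 0 in both comparisons. Tagln, which encodes the smooth muscle protein transgelin, held 15, 38 and 27 reads in the T set, with log2 ratios of 1.32 (0.53 to 2.23) and 0.00 (-0.72 to 0.69). Tgfb1i1 held 3, 26 and 23 reads in the T set and 6, 26 and 8 in the S set, where its log2 ratio under siRNA was -1.51 (-2.74 to -0.51). Myh9 held 105, 130 and 87 reads in the T set, with log2 ratios of 0.20 (-0.17 to 0.57) and -0.08 (-0.48 to 0.31). Tpm1 was lower under TGF-b, with 42 and 22 reads, as was Filip1l, with 23 and 7 reads. Under siRNA the T set median of the list was -0.09, with 1 of 10 genes higher and 2 lower. Among S set regions 4 listed genes had a core region under TGF-b, with 2 higher and none lower.

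YAP/TAZ targets lay on both sides of 0. Of 24 listed genes 14 had a core region in the T set against NC, with 3 at least 2-fold higher, 3 lower and a median of 0.06. Each count is 21.4%, near the shares over all genes. Ccn2, a matricellular growth factor gene, held 109 NC, 96 TGF-b and 29 siRNA reads at chr10:24471110-24471430. Its log2 ratio was -0.28 (-0.67 to 0.12) for TGF-b and -1.21 (-1.84 to -0.65) for siRNA. Ankrd1 held 52, 25 and 32 reads, with a log2 ratio of -1.03 (-1.74 to -0.38) for TGF-b. Tead1, which encodes the DNA-binding partner of YAP and TAZ, held 24, 81 and 31 reads, and Nuak2 held 3, 31 and 20. Wwtr1, the gene of TAZ itself, held 41, 65 and 25 reads at chr3:57483187-57483491, with log2 ratios of 0.62 (0.07 to 1.19) and -0.86 (-1.56 to -0.24). These reads lie at the promoter and are not a measure of its transcript. Under siRNA, 1 of 12 listed genes was at least 2-fold higher and 2 lower, with a median of -0.43.

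Of 14 myofibroblast genes, 8 had a core region in the T set against NC, with 2 at least 2-fold higher, none lower and a median of -0.02, which centring turned to 0.63. Under siRNA 5 of 7 were at least 2-fold lower and none higher, with a median of -1.06, beside 23.9% lower and a median of -0.12 over all 8209 genes with a core region. By counting interval 3 of the 7 lay below 0, beside 25.6% of all genes. For the S set no myofibroblast gene had a core region under TGF-b, and 1, Acta2, had one under siRNA, with 7 and 17 reads. The lists overlap: Acta2, Tagln, Myl9, Tpm1 and Cnn1 are also SRF-MRTF targets, and Ccn2 also a YAP/TAZ target.

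**Figure D3:**
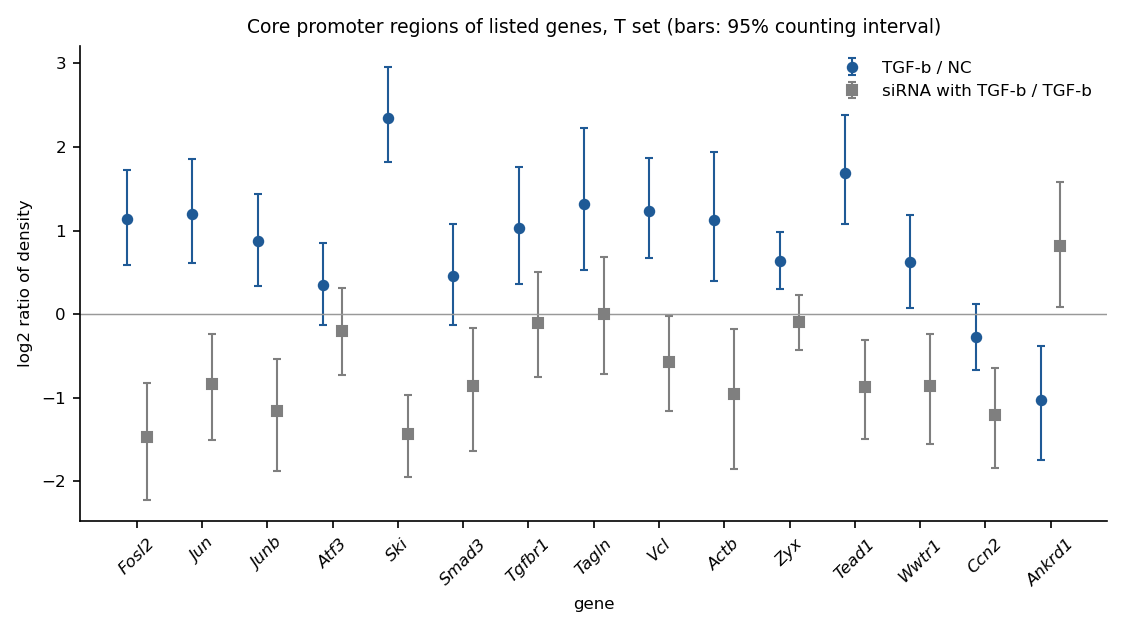
Log2 ratio of normalised read density (y) at the core promoter regions of genes from the AP-1, TGF-b, SRF and YAP/TAZ lists (x) in the T set, for TGF-b over NC (circles) and siRNA with TGF-b over TGF-b (squares); bars are 95% counting intervals, and both ratios share the TGF-b library. Fosl2, Jun, Junb and Ski lay above 0 in the first and below 0 in the second, with Ski at 2.35 and -1.43, whereas Ankrd1 lay at -1.03 and 0.82. The genes shown are a selection that does not stand for the lists, and Myh9, Smurf1, Tpm1 and Filip1l are among those left out.

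Gene families taken by their symbols differed in how often a core promoter was covered. In the T set, 61.5% of the cytosolic ribosomal protein genes with any region had a core promoter region, 77.1% of the translation initiation genes and 64.8% of the chaperone genes. The share was 41.1% over all genes and 28.7% for the olfactory and vomeronasal receptors, called chemosensory receptors here. The S set shares were 60.6%, 65.4%, 58.3%, 28.7% and 21.2%.

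Of 29 chaperone genes in the T set 11 were at least 2-fold higher under TGF-b (37.9%, beside 23.0% over all genes) and none lower (beside 16.9%), with a median of 0.75. Counting intervals lay above 0 for 15 of the 29, beside 28.1% of all genes. Dnajb1, an HSP40 co-chaperone gene, held 49 NC, 101 TGF-b and 27 siRNA reads, and Hsp90b1 76, 112 and 40. Under siRNA 1 of 32 chaperone genes was higher and 6 were lower, with a median of -0.41. The 18.8% that were lower lie below the 23.9% over all genes. Splicing factor genes had a median of 0.71, with 9 of 25 higher and 1 lower (beside the same 23.0% and 16.9%), and under siRNA a median of -0.66, with 1 higher and 11 lower (44.0% lower, beside 20.9% higher and 23.9% lower over all genes). Hnrnpa1 held 39, 89 and 63 reads and Hnrnpc 45, 64 and 14. For the S set, 5 of 7 splicing genes were at least 2-fold higher under TGF-b (71.4%, beside 23.2% over all genes) and none lower. Under siRNA none of 10 S set splicing genes was higher and 1 was lower, with a median of 0.07. Of 13 S set chaperone genes 4 were higher and 2 lower under TGF-b (30.8% and 15.4%, beside 23.2% and 9.06%). Proteasome genes had a T set median of -0.41 under TGF-b, which centring turned to 0.24. Of 117 zinc finger genes 36 were higher and 10 lower (30.8% and 8.55%), and of 16 cell cycle genes 3 were higher and none lower. The 18.8% of cell cycle genes that were higher lie below the share over all genes. Of 13 replication-dependent histone genes 4 were higher and 2 lower under TGF-b, and under siRNA 1 of 10 was higher and 5 lower. The medians of ribosomal protein, translation initiation and respiratory chain genes lay between -0.05 and 0.34, and those of the last 2 changed sign with the scaling.

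Chemosensory receptor genes, which are silent outside sensory neurons, went the other way in the T set. Of 107 with a core region, 15 were at least 2-fold higher under TGF-b and 56 lower, with a median of -1.10 that kept its sign under both scalings. These shares of 14.0% and 52.3% stand beside 23.0% and 16.9% over all core promoter genes, and are nearer to the 17.3% and 42.1% over all regions of the table. Or6b2 held 53 NC, 10 TGF-b and 5 siRNA reads, and Or13a1 37 and 6 in NC and TGF-b. Under siRNA, 80 of 126 were at least 2-fold higher and 13 lower (63.5% and 10.3%, beside 49.7% and 16.2% over all regions), with a median of 1.45. Or5j3, for example, held 5 reads in TGF-b and 20 in the siRNA library. Within the S set the medians were -0.39 under TGF-b, which turned to 0.17 without the authors' line, and -0.06 under siRNA, which centring turned to 0.16. Receptor genes lie in clusters of similar sequence, and how reads that map to several copies were counted is not stated in the sources used here.

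**Figure D4:**
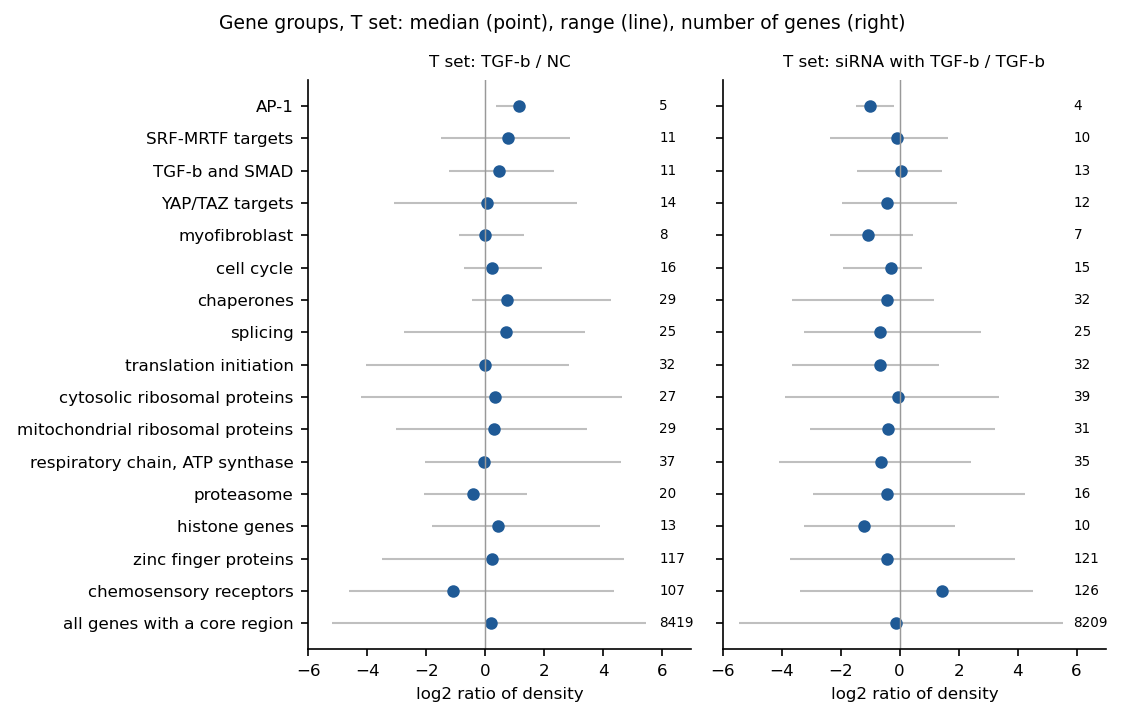
Log2 ratio of normalised read density (x) for core promoter regions of 16 gene groups and of all genes with such a region, in the T set for TGF-b over NC (left) and siRNA over TGF-b (right); points are medians, lines run from the lowest to the highest gene, and the number of genes stands at the right. Chemosensory receptors had medians of -1.10 and 1.45, on the other side of 0 from all genes at 0.20 and -0.12.

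The families above differ in promoter sequence, and CpG content was therefore set beside the ratio. Of the 6677 protein-coding genes with a core promoter region in the T set against NC, 5459 had a RefSeq window of 300 bases, 81.8%, and in the other comparisons 81.2% to 82.3% had one. Genes with several windows entered with their mean. Median CpG counts per window were 20.5 for T and 21 to 22 for S, against 13 over the 17492 protein-coding genes with a window. Those are 79.9% of 21900, just under the share of 80% set as a minimum, so that the shares over all genes describe the windows at hand and no more. The letters GGGCGG were found in 65.9% of T set windows and in 69.2% of S set windows, against 45.9% over all protein-coding genes. They contain a CpG, so that this share is not independent of CpG content. TATAAA was found in 7.0% and 5.7%, against 13.4%. The TEAD letters GGAATG were found in 12.5% and 11.4%, against 13.5%, and the CArG box in 1.6% and 1.3%, against 1.5%. Over all genes CCAAT was found in 38.9%, CCGGAA in 18.9%, TGACGTCA in 2.27%, TGANTCA in 7.03% and CGCATGCG in 2.51%, and in the T set core promoter genes in 42.3%, 25.2%, 2.83%, 5.74% and 3.78%. These S set values are from the comparison of TGF-b with NC. A match is a description of these letters and not a bound site.

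Along CpG content the T set ratios ran in opposite directions in the 2 comparisons, which share the TGF-b library. For TGF-b over NC the median log2 ratio was -0.43 in the 304 genes whose CpG observed over expected was under 0.2, -0.10 at 0.2 to 0.4, 0.21 at 0.4 to 0.6, 0.28 at 0.6 to 0.8, 0.42 at 0.8 to 1.0 and 0.46 in the 565 genes at 1.0 or more. Regions at least 2-fold lower made up 38.5% of the first bin and 9.56% of the last. For siRNA over TGF-b the medians ran from 0.71 in the 331 genes of the first bin to -0.48 in the 546 of the last. Among genes with 20 reads or more in the 2 libraries together the range was -0.22 to 0.47 and 0.33 to -0.53. Among S set regions under TGF-b the lowest bin, of 88 genes, had a median of 0.18 and the highest, of 196, one of 0.55. Under siRNA the S set medians lay between 0.10 and 0.24, without an order along the bins. Genes whose windows held GGGCGG had a T set median of 0.36 under TGF-b and genes without it one of 0.01.

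Windows with the TEAD letters had T set medians of 0.21 under TGF-b and -0.12 under siRNA, beside 0.28 and -0.21 in windows without them. Windows with a CArG box had S set medians of 0.55 under TGF-b over 29 genes and 0.27 under siRNA over 42 genes, beside 0.42 and 0.16 without it, and the quartiles of these groups overlapped widely.

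**Figure D5:**
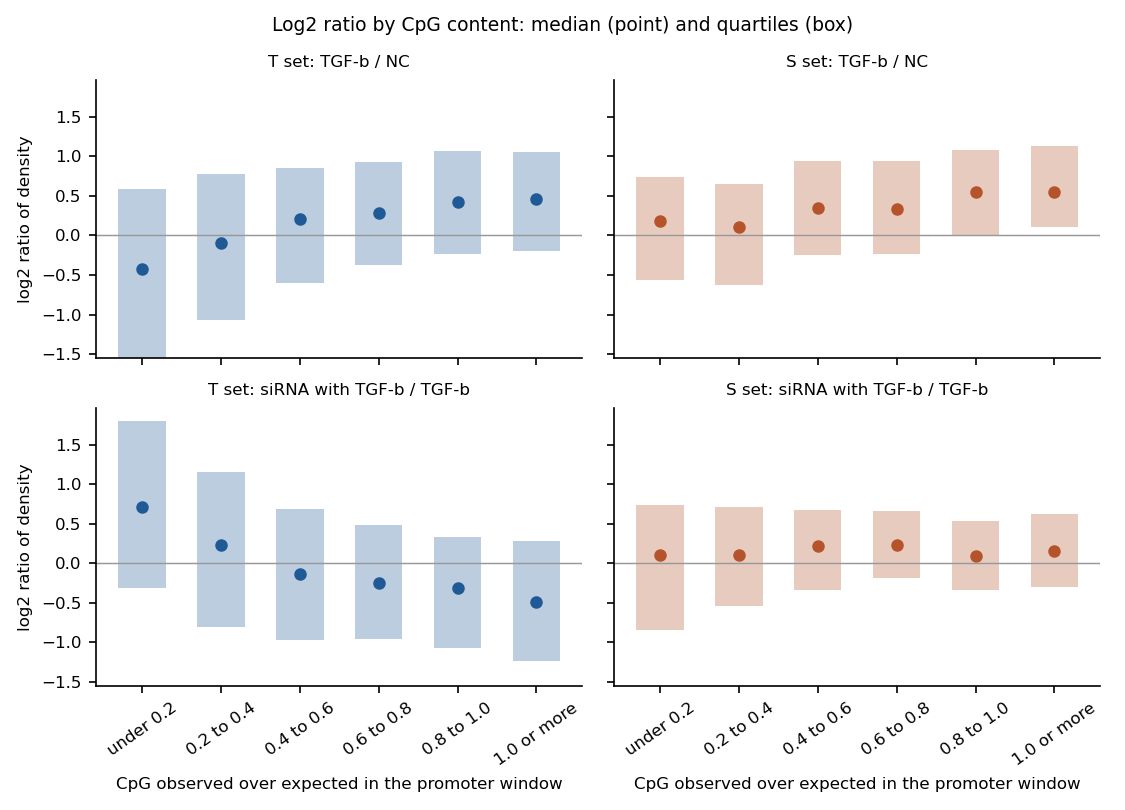
Log2 ratio of normalised read density (y) at core promoter regions of protein-coding genes by the CpG observed over expected of their 300-base RefSeq window (x), in the 4 comparisons; points are medians and boxes run from the lower to the upper quartile over genes. In the T set the medians ran from -0.43 to 0.46 for TGF-b over NC and from 0.71 to -0.48 for siRNA over TGF-b.

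Regions with the same coordinates in both tables of a set allow 3 libraries to be read side by side. The T set had 6090 such core promoter regions, with median reads of 19 in NC, 26 in TGF-b and 13 in the siRNA library, and the S set 2317, with 10, 22 and 19. Their median log2 ratios were 0.58 for TGF-b over NC and -0.53 for siRNA over TGF-b in the T set, and 0.59 and -0.17 in the S set. The last is opposite in sign to the 0.13 over all S set core promoter regions. Both tables of a set hold the TGF-b library, so that regions found in both are partly chosen through it and these medians are a description only. Of these, 1645 for T and 354 for S were called in every library of the set, and there the medians were 0.41 and -0.23 for T and 0.27 and 0.15 for S.

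The T and S sets share no library, and their core promoter regions overlapped by at least 1 bp in 1623 pairs for TGF-b over NC. The overlapping regions were 16.3% of the T set and 53.3% of the S set core regions, with median log2 ratios of 0.50 in both sets. Regions without a partner had medians of 0.07 and 0.16. Of the pairs, 419 were at least 2-fold higher for T and 394 for S, 128 in both, while 60 were at least 2-fold lower for T and 79 for S, 16 in both. A further 24 were higher for T and lower for S, and 7 the reverse. Across pairs the log2 ratios had a Pearson correlation of 0.15, whereas mean densities had one of 0.60; pairs share position, mappability and base composition. For siRNA over TGF-b, 2391 pairs had medians of -0.40 (T) and 0.17 (S), and their log2 ratios had a Spearman correlation of 0.03. Of these pairs 129 were at least 2-fold higher and 632 lower for T, and 273 higher and 100 lower for S. Within these counts 27 pairs were higher in both sets, 25 lower in both, 72 lower for T and higher for S, and 6 the reverse.

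Some genes, chosen after their values were seen, were higher under TGF-b in both sets beyond counting error. Klf3, which encodes a Krüppel-like repressor, held 27 reads in NC and 126 in TGF-b in the T set at chr5:64960194-64960811, and 12 and 70 in the S set, with log2 ratios of 2.14 (1.58 to 2.77) and 1.91 (1.14 to 2.88). Usp28, a deubiquitinase gene, held 22 and 95 reads for T and 10 and 54 for S. Zfp367 held 52 and 168 for T and 6 and 37 for S. Pbrm1, a subunit of the PBAF remodeller, held 14 and 47 and 3 and 31. In the other direction, Phldb1 held 28 and 6 reads for T and 10 and 2 for S. Under siRNA, Trim24, a chromatin reader gene, was lower in both sets, with 54 and 3 reads for T and 55 and 20 for S, and Rad23b likewise, with 61 and 19 and 63 and 20. R3hdm1 was higher in both, with 40 and 73 and 18 and 45 reads.

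Markers of cell types were looked up among the core promoter regions, where a region shows coverage and not expression. In the T set, 8 of 12 cardiac fibroblast markers had one, among them Col1a1, Col1a2, Pdgfra, Dcn and Vim, as did 4 of 9 cardiomyocyte, 2 of 6 endothelial, 1 of 6 mural and 0 of 6 leukocyte markers. For the S set these counts were 0 of 12, 2 of 9, 0 of 6, 1 of 6 and 0 of 6. Over all genes with any region, 41.1% (T) and 28.7% (S) had a core promoter region, whereas the marker counts are over whole lists. The counts are therefore no measure of the cell type, and the S set core promoters give its label no marker support.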

How the data were processed

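Per the study's methods, reads were mapped to GRCm39 with Bowtie2 and peaks called with a tool given as Masc2, whereas the submitters' processing notes name BWA 0.7.12 and mm10; the contig names in the tables are those of GRCm39. The authors deposited 4 tables, each with the merged regions of 2 libraries and a normalised read density, a signal of 0.5 per read plus 1, as for a window of 2 kb, which they rescaled along a line in mean log2 density. Ratios were therefore computed only within a table. The tables' own log2 ratios and p-values were not used. Reversing that line returned read numbers that were whole to 0.1 in over 99.9% of regions, which was checked on simulated data. The spike-in of the methods did not enter.

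The log2 ratio was computed from the 2 densities. Intervals of a region come from the Wilson 95% interval of the later library's share of the reads, with the line applied. Folds from libraries at 0 use a floor of 3 reads per library. Neighbouring regions share reads. Where a gene had several regions, the one of highest mean density stands for it in lists. Genes named were, per comparison and among regions of 20 or more reads, the 3 highest and 3 lowest log2 ratios and the densest regions, and the densest members of fixed lists. Other list members, members of families taken by symbol, and genes shared by the T and S sets were chosen after their values were seen. The values of 1 of the genes on the myofibroblast list, which its counts include, are not reported here. The members, lists and named genes were chosen with earlier results of these data known. Alternatives were another centring, no line, a minimum of 10 reads, 1 region per gene, any annotation within 1 kb, and a 4-fold threshold. Analyses used python 3.11.15, pandas 2.3.3 and numpy 2.4.6.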

Additional observations from a re-analysis of the deposited data

Results flagged for a closer look

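Core promoter regions differed in sign between the sets for siRNA with TGF-b against TGF-b alone, with a median log2 ratio of -0.078 (T set) and of 0.13 (S set). The difference was not tested, since each set had 1 library per treatment, and the siRNA is labelled with a different target in each set. The T set median turned to 0.025 with any annotation within 1 kb.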

How the results depend on the processing

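With 1 library per treatment, no paired analysis was possible because no result comes from a test. For siRNA over TGF-b in the T set, the median of -0.078 turned to 0.025 when every region within 1 kb of a TSS was taken whatever its annotation, which takes in regions of other annotations; the counts at least 2-fold higher and lower were then 4252 and 3749. Under that choice the T set median for TGF-b over NC was 0.094, with 3739 higher and 3655 lower, the S set had 1242 and 578, and for siRNA the S set median was 0.071, with 910 and 877. Centred on all regions, the medians were 0.81 (T, TGF-b), 0.56 (S, TGF-b), -1.05 (T, siRNA) and 0.34 (S, siRNA), with 4340 higher and 1002 lower in the first and 984 and 5014 in the third. Without the authors' line they were 0.12, 0.92, -0.55 and 0.087, with 1463 higher and 140 lower in the S set under TGF-b and 3547 lower in the T set under siRNA. At 4-fold, 735 T set regions lay above and 791 below under TGF-b, 153 and 64 for S, and under siRNA 973 and 870, and 83 and 93. Shares of all regions past 4-fold were not computed. With at least 10 reads the T set medians were 0.18 and -0.16, and with 1 region per gene 0.20 and -0.12. Raising lower read numbers to 3, chosen after seeing the data, gave an S set median under TGF-b of 0.42. Leaving out MT and unplaced contigs, also chosen after seeing the data, moved no median or count beyond its own interval or 1.5 times. Scalings of gene groups were likewise added after seeing the data. The cause of each shift was not tested. At medians of 10 to 19 reads per library, a 2-fold difference of a single region often lay within counting error.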

Other observations

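Protein-coding genes made up 89.1% of the T set and 91.0% of the S set core promoter genes that RefSeq lists, for TGF-b over NC, beside 80.2% and 81.3% of all genes of these tables. The coding genes had a median log2 ratio of 0.26 in T and 0.41 in S, and the 1742 and 523 other genes, which RefSeq lists as non-coding or does not list, had -0.12 and 0.069. For siRNA over TGF-b the medians were -0.18 and 0.29 in T, and 0.14 and 0.047 in S.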
